A study of Mus musculus with 3 samples.

Results

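The VEGF receptors, the neuropilins and 2 VEGF ligands were followed as a set of 7 genes, chosen by name: Kdr, Flt1, Flt4, Nrp1, Nrp2, Vegfa and Vegfc. A row for the gene in the deposited list of GFI1 or of GFI1B, with its genomic intervals and reads, is what was taken as listed. Of the 7 genes, 5 had a row among the 5238 genes of the GFI1 list and 5 among the 5327 genes of the GFI1B list, and they were the same 5 genes. Of all RefSeq mouse genes, 9.24% and 9.45% had such rows. Flt4 and Vegfa had no row in either, and absence of a row is not evidence of absent binding.

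VEGF signalling builds and maintains blood vessels. Secreted ligands such as VEGF-A and VEGF-C bind receptor tyrosine kinases on endothelial cells, and neuropilins bind the same ligands and present them to the receptors. Kdr encodes VEGF receptor 2, also called FLK1, the main signalling receptor for VEGF-A and a marker of the mesoderm from which blood and endothelium arise. GFI1 and GFI1B are zinc-finger repressors that recruit the demethylase LSD1 and silence endothelial genes while blood cells emerge.

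The measurement was DamID, in which a protein fused to the methyltransferase DAM leaves adenine methylation at GATC sites near its binding places, and DpnI then cuts the methylated sites. The 3 groups of AinV18 mouse embryonic stem cells carried DAM fused to GFI1 (GFI1:DAM), DAM fused to GFI1B (GFI1B:DAM) or the control, DAM alone, each inserted at the Hprt docking site and induced by doxycycline, so the proteins came from a transgene and not from the native genes. FLK1+ cells were isolated from embryoid bodies at day 3.25, and the haemogenic endothelium, the TIE-2/c-KIT compartment, was sorted on day 2 of the following culture. Kdr, the gene of the sorting antigen FLK1, is itself a member of the set. Each group was 1 sample that stood for 2 biological replicates, so no value below has an error between replicates, and no test across replicates was possible. No separate list of the DAM control was compared. Control reads had, however, already been subtracted in the GFI1B list, while subtraction and threshold are not known for the GFI1 list. The lists may thus have been made in different ways, and the effect on reads, intervals and percentiles compared between them was not tested. No RNA was measured, so the sorted cell type could not be checked against marker genes. Total library depth is unknown, and read density is given in reads per kb of interval, which places a gene inside its own list and is not scaled between lists.

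The promoters of 4 members are shown first, because DAM can mark DNA only at GATC: Kdr as the main receptor, both neuropilins as the members with the highest GFI1B read density, and Flt4 as the receptor with no row. Each window runs from 250 bases before the gene's start to 50 after it, read 5′ to 3′ on the gene's strand, from RefSeq on GRCm38.p6. Capitals mark GATC, the DAM site, which is its own reverse complement, and AATC, the core letters of GFI1 and GFI1B recognition, which appear as GATT when they lie on the other strand. These motifs never overlap each other in the 4 windows. The Kdr window lies at chr5:75978406-75978705 on the minus strand, that of Nrp1 at chr8:128358823-128359122, that of Nrp2 at chr1:62703067-62703366 and that of Flt4 at chr11:49609429-49609728, the last 3 being on the plus strand.
Kdr: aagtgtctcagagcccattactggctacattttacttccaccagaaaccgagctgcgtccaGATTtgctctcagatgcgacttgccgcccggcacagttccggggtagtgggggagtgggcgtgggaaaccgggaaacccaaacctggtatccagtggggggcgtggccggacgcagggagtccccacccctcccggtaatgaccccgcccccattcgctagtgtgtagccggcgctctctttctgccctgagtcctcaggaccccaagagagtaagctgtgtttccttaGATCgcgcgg
Nrp1: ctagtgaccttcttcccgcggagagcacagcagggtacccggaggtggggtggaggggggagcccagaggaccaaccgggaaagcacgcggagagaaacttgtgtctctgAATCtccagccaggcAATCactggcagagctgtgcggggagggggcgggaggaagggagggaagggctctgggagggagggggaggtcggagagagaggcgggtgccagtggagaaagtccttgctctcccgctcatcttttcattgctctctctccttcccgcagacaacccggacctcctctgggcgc
Nrp2: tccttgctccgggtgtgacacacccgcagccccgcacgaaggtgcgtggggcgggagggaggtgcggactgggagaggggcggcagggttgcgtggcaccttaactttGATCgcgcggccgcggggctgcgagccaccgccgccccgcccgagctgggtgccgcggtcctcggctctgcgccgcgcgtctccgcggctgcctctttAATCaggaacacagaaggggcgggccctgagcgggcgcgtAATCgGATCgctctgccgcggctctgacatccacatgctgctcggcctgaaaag
Flt4: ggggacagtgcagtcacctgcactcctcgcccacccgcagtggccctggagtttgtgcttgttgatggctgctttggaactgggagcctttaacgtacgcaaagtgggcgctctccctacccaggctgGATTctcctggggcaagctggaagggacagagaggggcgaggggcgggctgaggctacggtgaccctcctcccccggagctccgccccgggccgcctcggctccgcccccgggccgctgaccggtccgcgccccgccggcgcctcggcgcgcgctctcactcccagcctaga

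Sequences were found for all 7 members, in 8 windows, with 2 for Vegfa. The Nrp2 window held 2 GATC and those of Kdr and Vegfc 1 each, while the windows of Flt1, Nrp1, Flt4 and Vegfa held none. Members with and without GATC in the window were thus found among the listed genes. Of all 32851 promoter windows in the table, 48.0% held GATC. AATC on either strand was in the windows of 6 of the 7 members, Vegfc being the one without, against 73.1% of all windows. The longer motif AAATCAC, on either strand, was in none of the members' windows and in 3.20% of all windows. These letters are a description of sequence and not a call of binding. The deposited intervals are on mm9, a different build, so whether any of them covers one of these windows was not determined.

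As the background for these counts, 9.24% of 49997 RefSeq mouse genes had a row for GFI1, 9.45% for GFI1B and 5.32% under both fusions, and among protein-coding genes the shares were 18.4%, 19.1% and 11.0%. Of the 7 members 71.4% were listed for both. The share varied with gene length. When protein-coding genes were divided into 5 equal classes of length, Flt1, Nrp1, Nrp2 and Vegfc fell in the longest, in which 30.9% were listed for both. Kdr and Flt4 fell in the next class, with 11.7%, and Vegfa in the middle one, with 6.44%. So 4 of the 5 listed members come from the longest class, and Kdr is the exception. With 7 genes chosen by name, no test of the count was made.

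The 5 listed members carried 10 intervals for GFI1 and 14 for GFI1B, and none of these 24 intervals was listed under another gene. Kdr, Flt1 and Vegfc had more intervals for GFI1B than for GFI1, as had 24.8% of the 2953 genes listed for both, and Nrp1 and Nrp2 had equal numbers. Read number, which is not scaled to library size, and covered length were higher for GFI1B in all 5 genes, and in 65.4% and 58.5% of the shared genes. By position, 7 of the 10 GFI1 intervals overlapped a GFI1B interval by at least 1 bp, in 4 genes, and 7 of the 14 GFI1B intervals overlapped in turn. Over all intervals of the lists the shares were 39.2% and 36.9%. Over the genes listed for both, 59.7% of GFI1 intervals and 55.2% of GFI1B intervals overlapped an interval of the same gene in the other list. Against these last values, the members had a share of 70.0% for GFI1 and 50% for GFI1B, one above and one below, which is not a result about the set. Marks left by DAM itself, or a control used for both lists, could add to such overlap, and their part was not tested.

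**Figure D1:**
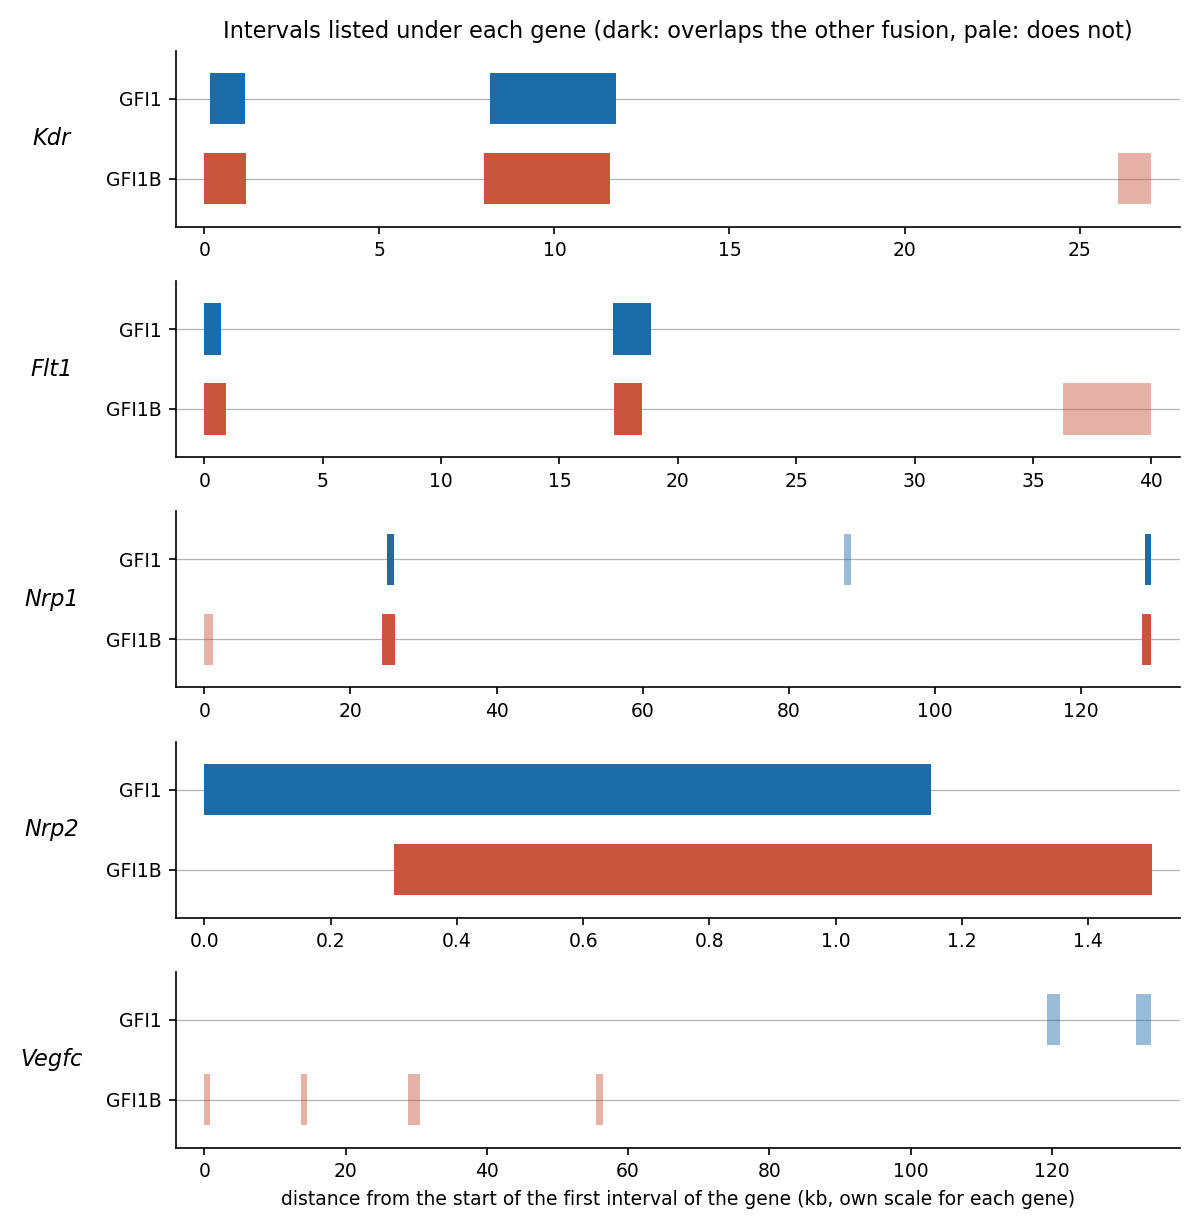
Each row pair shows the intervals of 1 gene, GFI1 above and GFI1B below, along the distance in kb from the start of the gene's first interval, with a separate scale for each gene. Dark bars overlap an interval of the other fusion and pale bars do not: Kdr, Flt1, Nrp1 and Nrp2 have dark bars, and all 6 bars of Vegfc are pale.

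Kdr had the highest read number of the members in both lists, and the same long block in each. It was listed with 323 reads for GFI1 and 405 for GFI1B. Over 4602 and 5753 bp of interval this gave 70.2 and 70.4 reads per kb. Those densities stand at the 78.5th and 72.5th percentiles of their lists, where the percentile is the share of rows with a lower value, so Kdr lay above the median in both. Its GFI1 intervals were on chromosome 5 (mm9 throughout) from 76357782 to 76358782 and from 76365782 to 76369382. For GFI1B they ran from 76357632 to 76358832 and from 76365632 to 76369232. The second block was 3601 bp wide for each fusion and shifted by 150 bp, so that 3451 bp were common. Only 1.86% of all GFI1 intervals and 3.44% of all GFI1B intervals were as wide or wider. A gap of 6999 bp for GFI1 and 6799 bp for GFI1B separated the blocks. GFI1B had a further interval of 951 bp from 76383732 to 76384682, which lay 14.3 kb from the nearest GFI1 interval. Of the 87 genes with 2 GFI1 and 3 GFI1B intervals, Kdr and Flt1 included, 38 (43.7%) had both GFI1 intervals overlapping, as these 2 genes had. The reads of single intervals are not given, so how the density divides among them is unknown.

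Flt1 encodes VEGF receptor 1, which binds VEGF-A tightly, signals weakly and in its soluble form acts as a decoy. It had 138 reads for GFI1 and 302 for GFI1B. Per kb these were 60.0 and 51.6, at the 69.4th and 46.7th percentiles. Flt1 was therefore above the GFI1 median and just below the GFI1B median. The intervals of the fusions near 148395782 on chromosome 5 began at the same listed coordinate and ended at 148396482 for GFI1 and 148396682 for GFI1B. Next to them, the GFI1 interval from 148413032 to 148414632 held the whole GFI1B interval from 148413082 to 148414282. What differed was a wide GFI1B interval from 148432032 to 148435782. At 3751 bp it was the widest of the members' intervals, and 2.90% of all GFI1B intervals were as wide. The nearest GFI1 interval was 17.4 kb away. With it the covered length for GFI1B was 2.54 times that for GFI1, while the read number was 2.19 times as high. Ranked by read number instead of density, Flt1 stood at the 77.8th and 89.7th percentiles, so the direction between the lists turned.

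Flt4, which encodes VEGF receptor 3, the receptor of VEGF-C on lymphatic and sprouting endothelium, had no row. In the RefSeq gene order its neighbours among protein-coding genes are 1700024J04Rik, which had no row either, and Scgb3a1, a secretoglobin gene, listed for both fusions at 48.5 and 122 reads per kb. The Scgb3a1 intervals of the fusions did not overlap. They ran on chromosome 11 from 49476663 to 49477363 for GFI1 and from 49471623 to 49473223 for GFI1B, 3.44 kb apart. The rule by which the authors assigned intervals to genes is not stated in the labels or headers.

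The 2 neuropilin genes stood close to each other in each list, and at a higher percentile for GFI1B than for GFI1. Nrp1 encodes the co-receptor that pairs with VEGF receptor 2, and Nrp2 the one that pairs with VEGF receptor 3, and both also bind class 3 semaphorins. For Nrp1 150 reads were listed for GFI1 and 402 for GFI1B, or 55.5 and 95.7 reads per kb (62.7th and 87.8th percentiles). For Nrp2 the reads were 64 and 122, or 55.6 and 102 per kb (62.8th and 89.8th percentiles). Both genes lay inside the middle 50% of the GFI1 list and above the upper quartile of the GFI1B list, 73.4 reads per kb. The move was 25.1 percentile points for Nrp1 and 27.0 for Nrp2. Among the 2953 shared genes 16.7% and 15.2% moved up by as much, and the quartiles of the move were -14.4 and 14.7 points, so both neuropilin genes moved further than the upper quartile but not beyond what many genes did. The move was not particular to the neuropilins. Vegfc moved by 25.6 points, and 16.2% of shared genes moved up by as much, while Kdr and Flt1 moved by -6.04 and -22.7 points. Ranked by read number, the percentiles were 80.8 and 94.2 for Nrp1 and 41.1 and 62.4 for Nrp2, again higher for GFI1B, but the neuropilin genes no longer stood together.

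**Figure D2:**
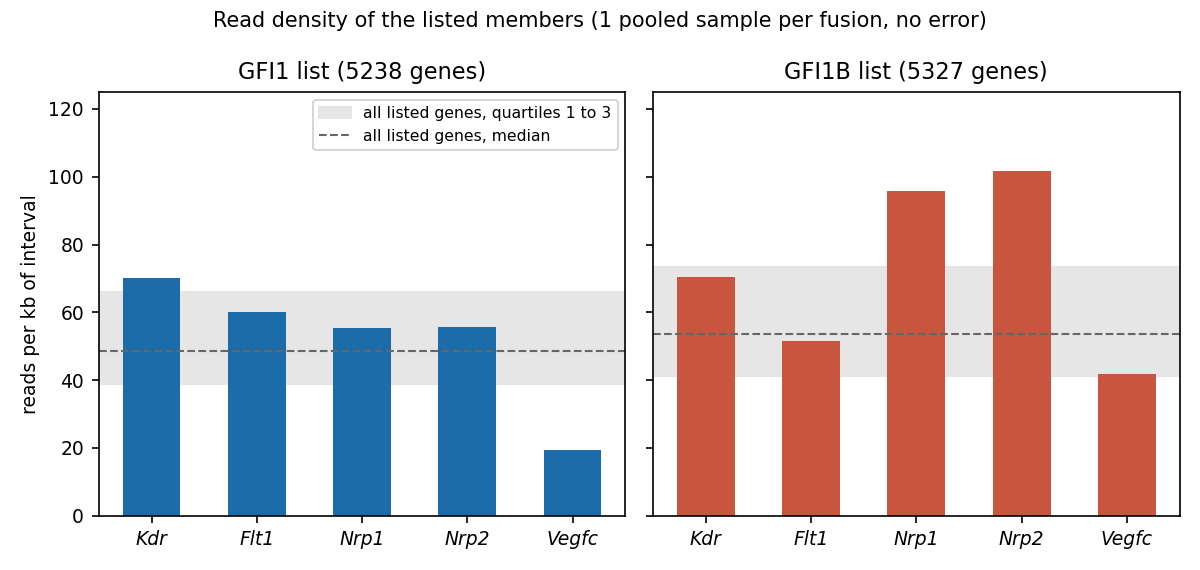
Bars give the reads per kb of interval of the 5 listed members in the GFI1 list (left) and the GFI1B list (right), with the median (dashed) and the span between the quartiles (grey) of all listed genes. Nrp1 and Nrp2 reach 95.7 and 102 for GFI1B and 55.5 and 55.6 for GFI1, Kdr is near 70 in both, and Vegfc is below the median in both.

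The neuropilin genes differed in layout. Nrp2 had 1 interval per fusion, on chromosome 1 from 62783184 to 62784334 for GFI1 and from 62783484 to 62784684 for GFI1B. These share 851 bp, which is 56.7% of their union. An overlap was found in 1014 (72.1%) of the 1407 genes with 1 interval in each list. Nrp1 had 3 intervals for each fusion, spread over 105 kb for GFI1 and 130 kb for GFI1B on chromosome 8. The GFI1 interval from 130911279 to 130912229 lay inside the GFI1B interval from 130910575 to 130912325, and that from 131014929 to 131015779 inside the one from 131014575 to 131015825. Each fusion also had an interval of its own. For GFI1 it ran from 130973779 to 130974679, 39.9 kb from the nearest GFI1B interval, and for GFI1B from 130886225 to 130887425, 23.9 kb from the nearest GFI1 interval. Among the 53 genes with 3 intervals in each list, 38 (71.7%) had at least 2 overlapping GFI1 intervals, as Nrp1 had. The next protein-coding genes to Nrp1 are Pard3, a polarity gene listed for both, and Itgb1, the beta-1 integrin gene, which had a GFI1 row (64.6 reads per kb) but none for GFI1B.

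**Figure D3:**
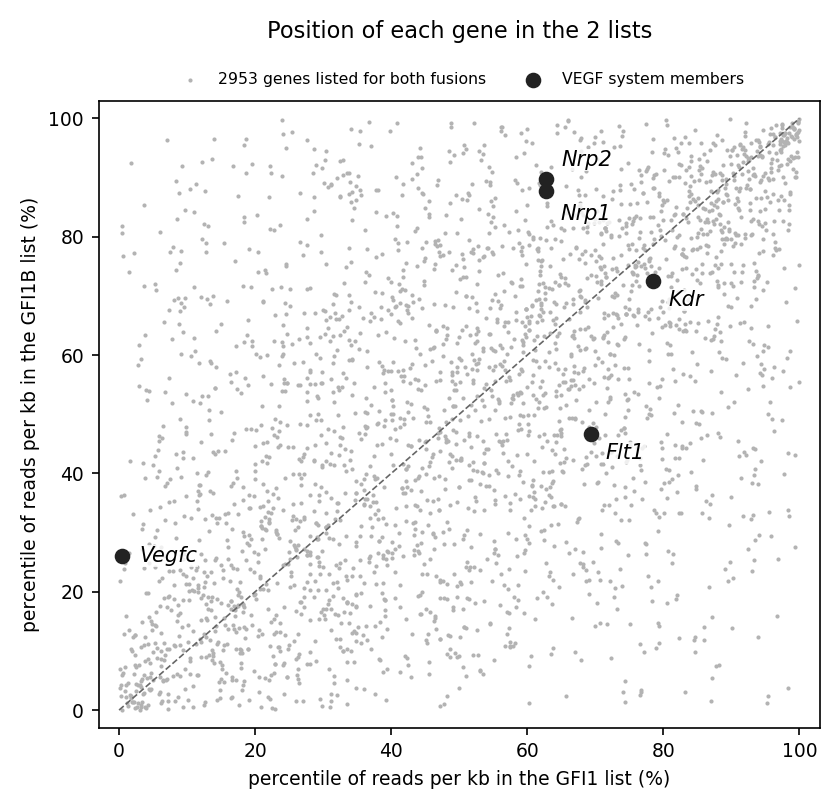
Each point is a gene listed for both fusions, placed by the percentile of its reads per kb in the GFI1 list (horizontal, %) and in the GFI1B list (vertical, %), and the dashed line marks equal percentiles. Nrp1 and Nrp2 lie together above the line, Flt1 lies below it at 69.4 and 46.7, Kdr lies close to it, and Vegfc sits at the left edge at 0.477 and 26.1.

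Of the ligand genes, Vegfc was listed for both fusions at different places and with low density. Vegfc encodes the ligand of VEGF receptors 3 and 2 that drives lymphatic growth. It had 79 reads for GFI1 and 182 for GFI1B. Per kb the values were 19.5 and 41.8, below the median in both lists. Only 25 of the 5238 rows of the GFI1 list had a lower density, which puts Vegfc at the 0.477th percentile, and for GFI1B the percentile was 26.1. By read number alone Vegfc was in the middle of the GFI1 list (52.8th percentile) and at percentile 77.3 for GFI1B. Among rows with the same number of intervals its density stood at percentiles 0.238 and 12.4. Its covered GFI1 length of 4052 bp was longer than that of 91.3% of the rows.

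No Vegfc interval of GFI1 overlapped one of GFI1B. The GFI1 intervals, on chromosome 8, ran from 55262979 to 55264829 and from 55275579 to 55277779. All 4 GFI1B intervals lay at lower coordinates, the first starting at 55143675 and the last ending at 55200175, so the nearest intervals of the fusions were 62.8 kb apart. Among the 25 genes with 2 GFI1 and 4 GFI1B intervals, Vegfc included, 4 (16.0%) had no overlap. The nearest intervals under other genes were those of Wdr17 for GFI1, 438 kb away, and of Neil3 for GFI1B, 421 kb away, so the Vegfc intervals stood alone in a wide stretch of both lists. This was not particular to Vegfc. For Nrp1 the nearest such interval was 175 kb away for GFI1 and 862 kb away for GFI1B. Vegfa, the gene of the main ligand of blood vessel growth, had no row. Its neighbours in the RefSeq order are 1600014C23Rik, without a row, and Mrps18a, a mitochondrial ribosomal protein gene, listed for both at 54.9 and 77.2 reads per kb. Of the 2 GFI1 intervals of Mrps18a on chromosome 17, that from 46250647 to 46252097 lay inside its only GFI1B interval, from 46250041 to 46252191. The other, from 46216647 to 46218547, was 31.5 kb from the nearest GFI1B interval.

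Where the fusions marked the same place, the edges of the members' intervals were compared with those of all overlapping pairs. The 7 overlapping pairs shared a median of 75.0% of their union (quartiles 62.4% and 80.6%), against 67.3% (44.4% and 85.7%) over all 2815 overlapping pairs of the lists. Starts were a median of 150 bp apart in the members and 154 bp in all pairs. The widths of all intervals in both lists lay on a 50 bp grid, so edges are not resolved to the base. In 4 of the 7 pairs the GFI1B interval held the whole GFI1 interval. The same share over all pairs was not computed, so this count is not a result about the members. Over the whole lists GFI1B intervals were also wider, with a median of 1351 bp against 1201 bp. By share of the union, the pair of the wide Kdr block was the closest match of the 7, with 92.0%. The pair of Nrp1 near 130911279, with 54.3%, was the loosest. That share depends on width as well as on shift. By distance between starts the Flt1 pair near 148395782 was the closest, at 0 bp, against 150 bp for the wide Kdr block.

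**Figure D4:**
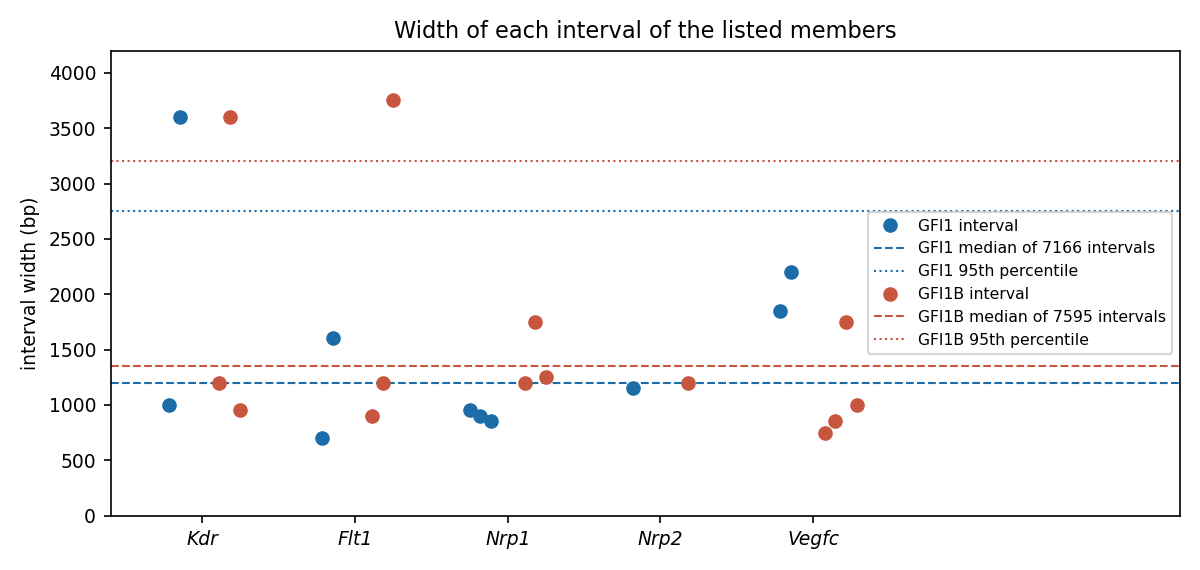
Points give the width in bp of each interval of the 5 listed members, blue for GFI1 and red for GFI1B, with the median (dashed) and the 95th percentile (dotted) of all intervals of each list. The Kdr interval of 3601 bp in each list and the Flt1 interval of 3751 bp for GFI1B lie above the 95th percentile, and the other 21 intervals lie below it.

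By read density the order of the members was Kdr, Flt1, Nrp2, Nrp1 and Vegfc for GFI1, and Nrp2, Nrp1, Kdr, Flt1 and Vegfc for GFI1B. Nrp2 and Nrp1 were neighbours in both orders. With no replicates apart, none of these orders can be set against an error. The genes most like Kdr, by the distance between pairs of percentiles among the 86 other genes with 2 GFI1 and 3 GFI1B intervals, were Pou2f1 at 3.19 points, Ywhae at 3.64 and Radil at 4.65. This likeness rests on 2 lists, and unlike Kdr all 3 genes had at least 1 interval listed under a further gene.

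The wider VEGF pathway was described over 46 other genes, of which 22 had a GFI1 row, 23 a GFI1B row and 17 one in each. The background was 9.24%, 9.45% and 5.32% of all genes, and 18.4%, 19.1% and 11.0% of protein-coding genes. In the longest of the 5 length classes it was 43.8%, 44.1% and 30.9%. In 14 of the 17 (82.4%) an interval of the fusions overlapped, against 77.5% of all genes listed for both, which is near the background. Median density of the listed genes was 50.1 (GFI1) and 54.6 (GFI1B) reads per kb, against 48.7 and 53.6 over all rows, so the pathway genes were placed near the middle of each list. Gene length, with which the background varied, was not matched for this count. Of the other ligands and ligand-processing genes only Adamts3, whose protease activates VEGF-C, was listed, at 44.1 and 75.7 reads per kb. Vegfb, Vegfd, Pgf and Ccbe1 had no row.

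Neuropilins act with plexins and class 3 semaphorins, and of 9 such genes 6 had a row for GFI1 and 4 for GFI1B, a difference that was not tested. The 4 GFI1B genes were all listed for GFI1 too, each with an overlapping interval. Of all genes listed for both, 77.5% had one, so with 4 genes this is not a result about the group. Among protein-coding genes 18.4% had a GFI1 row, 19.1% a GFI1B row and 11.0% both. In the longest of the 5 length classes the shares were 43.8%, 44.1% and 30.9%. Plxna4, a plexin that signals for neuropilin-bound semaphorins, stood at 48.6 and 92.9 reads per kb. Of its 2 GFI1 intervals 1 was also under another gene, and so was its only GFI1B interval. Sema3f, the semaphorin that binds Nrp2, had a GFI1 row only, at 70.4. Ptprb, which encodes the endothelial phosphatase VE-PTP that restrains VEGF receptor 2 and TIE-2, stood at 79.5 and 190, percentiles 84.7 and 98.0. Vhl, whose product marks hypoxia-inducible factors for destruction, had a row for GFI1B alone, with 228 reads per kb (98.8th percentile), and Epas1, which encodes such a factor, HIF-2 alpha, for both at 84.5 and 53.7.

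Intracellular signalling was represented by 20 genes, of which the GFI1 list held 11, the GFI1B list 12 and both lists 10. The shares among protein-coding genes were 18.4%, 19.1% and 11.0%, and in the longest of the 5 length classes 43.8%, 44.1% and 30.9%. Ptk2, the focal adhesion kinase gene, stood at 77.4 and 143 reads per kb with 4 intervals in each list, 3 of the GFI1 intervals overlapping. Nos3, the endothelial nitric oxide synthase gene, stood at 75.3 and 54.6, and the adaptor gene Shb at 56.6 and 71.8. The exchange factor gene Vav2 stood at 46.2 and 67.6. Map2k1, which encodes the kinase MEK1, was listed for GFI1B alone at 89.9. The 5 receptor kinases closest in kinship to the VEGF receptors had 1 row in all. With 18.4% and 19.1% of protein-coding genes listed, 5 genes are too few to show a contrast with the VEGF receptors. Pdgfra, a PDGF receptor gene, had a GFI1B row of 62.1 reads per kb, and Pdgfrb, Kit, Flt3 and Csf1r had no row, although Kit is the next protein-coding gene to Kdr.

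**Figure D5:**
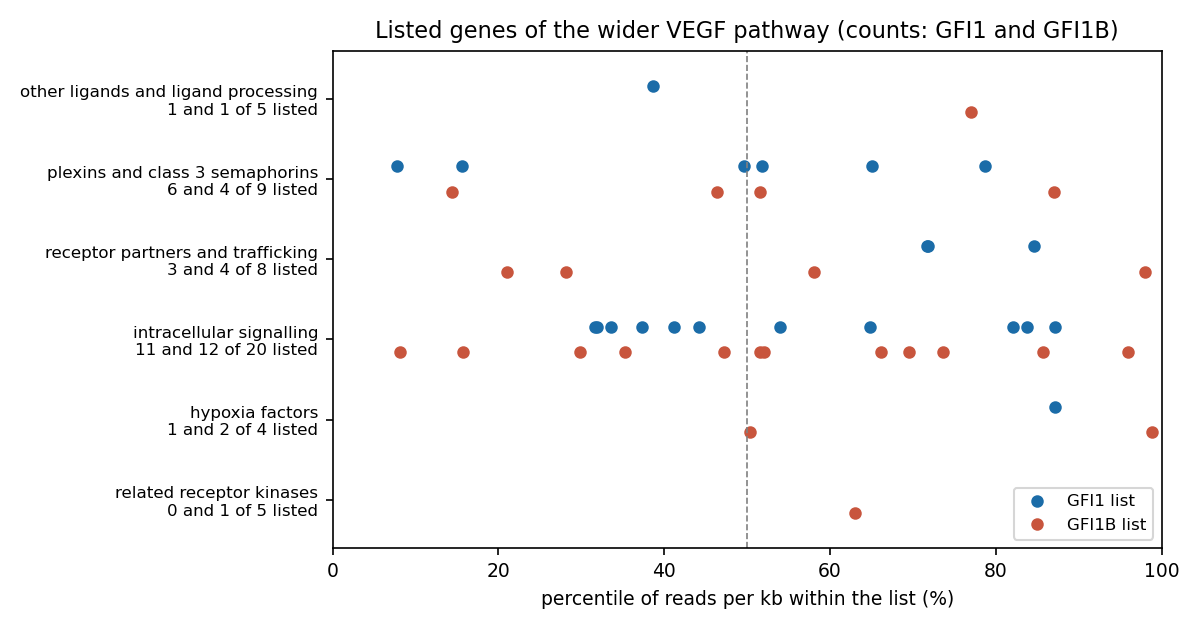
Each point is a listed gene, placed by the percentile of its reads per kb within the GFI1 list (blue) or the GFI1B list (red), in rows by role, with the count listed of all genes in the row. The points of most rows spread to both sides of the 50th percentile (dashed line).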

How the data were processed

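The data were 2 gene lists deposited by the authors, assigned to the fusions from worksheet names that match the sample titles. Per the file headers, the GFI1B list came from BayesPeak and a method written SS at threshold 0.05, with lanes merged and control reads subtracted. The header of the GFI1 list breaks off after BayesPeak, so its threshold and any subtraction are not known from these sources, nor is the aligner. Coordinates are on mm9, as the submitters' processing notes name it. The deposited read number was used as a score, since control reads may be subtracted. The deposited signal, reads per kb, equalled read number over summed interval length within 0.0051 in all rows of both lists.

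Percentiles, overlaps (at least 1 bp) and distances were computed with Python 3.11.15 and pandas 2.3.3, and tested on simulated data. Symbols and synonyms were matched to RefSeq on GRCm38.p6 (88.4% of GFI1 and 89.1% of GFI1B rows), used for names, gene order and length classes. With 1 pooled sample per fusion no test was run. Members and lists were chosen with earlier results of these data known. The text names all members and, of the other pathway genes, the 12 with the highest density in either list, of which 1 is not reported here. The role groups were set after the data were seen. Alternatives were another ranking value, other rows ranked, other backgrounds and stricter overlaps.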

Additional observations from a re-analysis of the deposited data

How the results depend on the processing

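The overlap of 7 GFI1 and 7 GFI1B intervals was the same at 50% of the shorter interval, at 50% of each interval and within 1 kb. Counting members only from intervals under no other gene could not change the counts, since none of the 24 intervals was listed under another gene. In the stronger 50% of each list, 4 members stayed for GFI1, 3 for GFI1B and 3 for both, and 12 and 14 of the other pathway genes. By construction about 50% of all rows stay in each list, and the share for both lists was not computed. These counts therefore only restate which genes lie above the list medians. The background share was 9.24% for GFI1, 9.45% for GFI1B and 5.32% for both. It became 18.4%, 19.1% and 11.0% among protein-coding genes. Within the middle of 5 length classes it was 12.6%, 14.9% and 6.44%, within the next longer 21.8%, 22.1% and 11.7%, and within the longest 43.8%, 44.1% and 30.9%. The median percentile of the listed members was 62.8 for GFI1 and 72.5 for GFI1B. It was 77.8 and 89.7 by read number, and 64.5 for GFI1 among protein-coding rows. Among rows with the same number of intervals 8 of the 10 single percentiles moved beyond their 95% counting interval, with Vegfc at 0.238 and 12.4 in place of 0.477 and 26.1, and among protein-coding rows 4 did. That interval depends on the number of rows in a list and is not an error between replicates, so these counts are not tests. By read number all 10 did. Nrp2 then stood at 41.1 and 62.4, below Nrp1 at 80.8 and 94.2, and Vegfc at 52.8 and 77.3, and Flt1 at 77.8 and 89.7 in place of 69.4 and 46.7, so the places of Nrp2, Vegfc and Flt1 depend on dividing by interval length, and the direction of Flt1 between the lists turns. No paired analysis was possible because each group is 1 pooled sample, and for the same reason no replicate could be left out.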
